A study of Mus musculus with 6 samples.

Results

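The MYC, MAX and MXD network is a family of transcription factors that share a basic helix-loop-helix leucine zipper and pair through it. MYC proteins bind the E-box, a short palindromic DNA element, only as a dimer with MAX, and recruit histone acetyltransferases that favour transcription of genes for growth and cell division. MXD1, MXI1, MXD3, MXD4, MNT and MGA also pair with MAX and occupy the same kind of site, and the MXD and MNT proteins recruit SIN3 and histone deacetylases, which repress it. MLX is a MAX-like partner that forms separate dimers with some MXD proteins or MNT and with the glucose-responsive factors MLXIP or MLXIPL. In thymocytes Myc is a known target of Notch1 and drives the growth of cells that pass beta-selection, and it is a central oncogene of T-cell acute lymphoblastic leukaemia.

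The network was taken as 10 listed genes (Myc, Mycn, Max, Mxd1, Mxd3, Mxd4, Mxi1, Mnt, Mlx and Mga) out of 19937 measured on mouse Affymetrix arrays. Each was found by its symbol, and each had 1 probe set with a single symbol, so no choice between probe sets had to be made. The control group, labelled RAG-/-, holds 3 arrays of double-negative (DN) thymocytes, which lack CD4 and CD8, from Rag2-/- mice, whose thymocytes stop at this stage. The other group, labelled DNTLX3+ and tumoral, holds 3 arrays of sorted DN thymocytes of wild-type mice infected with the retroviral vector pMSCV-GFP-TLX3, which carries a homeobox oncogene of T-cell leukaemia. Transduced cells were grown for 4 to 5 weeks on irradiated OP9-DL1 stroma, a mouse line that presents a Notch ligand, in medium with IL-7 and Flt3L. The protocol shared by all samples names C57Bl/6 mice aged 4 to 6 weeks. No array of cells given the vector without TLX3 was analysed here, so genotype and virus, and possibly culture, cannot be told apart. Separate mice or cultures are not stated for the replicates, and a p-value here therefore reflects only how these samples spread, possibly for technical reasons. Tlx3 itself was at 5.40, 5.42 and 5.52 on RAG-/- replicates 1, 2 and 3 and at 7.09, 6.52 and 6.45 on the DNTLX3+ replicates, higher on every DNTLX3+ array (limma adjusted p = 0.00103).

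Values are deposited log2 expression values, and differences are DNTLX3+ minus RAG-/- on the log2 scale. Rose and fell are used of genes past a limma adjusted p of 0.05 over all probe sets. By that rule 42.4% of all genes passed, 23% higher and 19.4% lower, and with a difference of at least 1 as well 1.44% were higher and 5.07% lower. The 2 groups of 3 arrays did not overlap for 58.3% of all genes (32.3% higher and 26% lower in DNTLX3+ arrays). All 10 members lay above the array medians on every array, and among the 10756 genes above the median level 45.7% passed, 15.1% higher and 30.6% lower, with a median difference of -0.14. The signal range differed between the groups, with an interquartile range of 3.09 to 3.18 log2 units on the RAG-/- arrays and 2.47 to 2.85 on the DNTLX3+ arrays, lowest on DNTLX3+ replicate 1. Quantile normalization of the values again moved the median of the genes above the median level from -0.14 to 0. Cyclic loess moved it to -0.03, so members near the threshold are given under these scalings too. The shares of genes above were counted for the deposited values only, so counts given under other settings have no share beside them.

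Cell type markers also moved with the groups. Of 12 DN thymocyte markers, all 12 stood above the array medians in the RAG-/- group and 11 in the DNTLX3+ group. In the latter 8 were lower (66.7%, against 30.6% of genes above the median level) and 1 higher (8.33%, against 15.1%). Their median difference was -0.56. Cd4 was at 6.01 and 5.67 and Cd8a at 6.25 and 6.38 in the RAG-/- and DNTLX3+ groups, close to or below the array medians of 6.22 to 6.35. Of 20 myeloid and dendritic markers, 18 were lower (90%) and 1 higher (5%) in DNTLX3+ arrays, against the same 30.6% and 15.1%. The mean level of the list was 8.13 to 8.37 on RAG-/- arrays and 5.69 to 5.90 on DNTLX3+ arrays. The corresponding ranges were 7.31 to 7.50 and 5.79 to 5.97 for 13 NK markers (9 lower, 69.2%, and 1 higher, 7.69%). They were 8.24 to 8.79 and 6.40 to 6.70 for 12 thymic epithelial markers (9 lower, 75%). For 11 fibroblast and stroma markers (4 lower, 36.4%) they were 6.70 to 6.96 and 6.07 to 6.08. For 8 B cell markers (2 higher, 25%, and 3 lower, 37.5%) they were 5.64 to 5.72 and 5.51 to 5.66. The lower shares of the fibroblast and B cell lists lie near the 30.6% of genes above the median level (19.4% of all genes). Of 3 erythroid markers measured, Klf1 was higher (33.3%) and 2 were lower (66.7%), among them Alas2 (7.73 and 6.04). The part of these other cell types in the values below was not tested, and in bulk samples fewer cells of a type and less RNA per cell cannot be told apart.

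**Figure D1:**
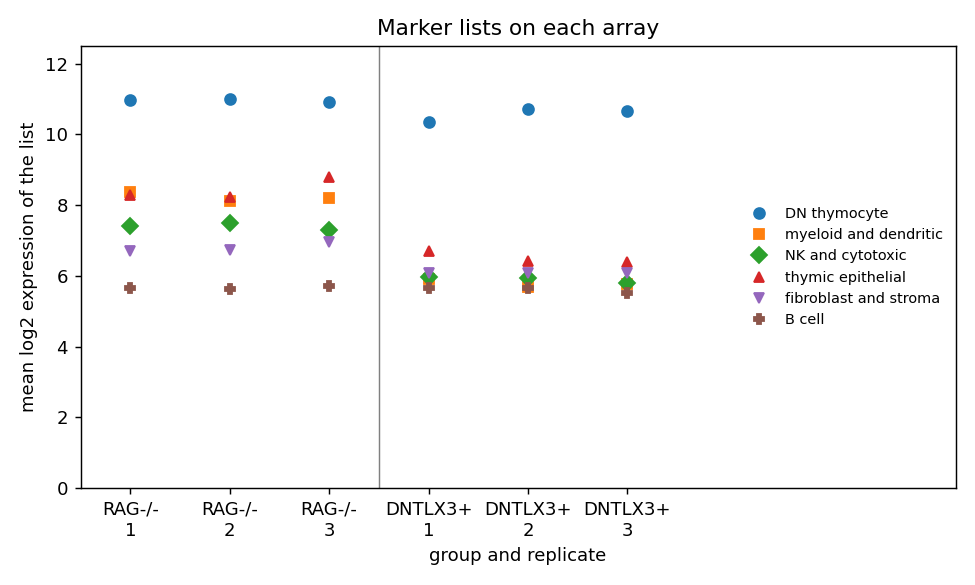
Mean log2 expression (y axis) of 6 marker lists on each of the 6 arrays (x axis, group and replicate), 1 point per list and array. The myeloid, NK and thymic epithelial lists stood at 7.31 or more on the RAG-/- arrays and at 6.70 or less on the DNTLX3+ arrays. The DN thymocyte list was also lower in the DNTLX3+ group, at 10.35 to 10.72 against 10.91 to 11.

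Some of the network's own promoters hold the letters of an E-box, and 4 are shown because they are the ones that held one of the E-box motifs below. RefSeq promoter sequences (GRCm38.p6) were matched for 9 of the 10 members by symbol. In the 250 bases before a gene's start, the canonical E-box CACGTG, which reads the same on both strands, was found in 3 of the 9, against 6.86% of 27025 genes. The variant CACGCG, or CGCGTG on the other strand, was found in 1 of the 9, against 8.65% of those genes. The sequences below end at the base before the start and run 5′ to 3′ on the gene's strand, with the motif in capitals.
Mxd4 (chr5:34187711-34187960, minus strand): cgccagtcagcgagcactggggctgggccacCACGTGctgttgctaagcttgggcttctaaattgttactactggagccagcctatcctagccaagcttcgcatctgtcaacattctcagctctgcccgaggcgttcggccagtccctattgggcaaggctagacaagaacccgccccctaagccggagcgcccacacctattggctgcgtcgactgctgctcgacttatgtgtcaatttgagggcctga
Mga (chr2:119896978-119897227, plus strand): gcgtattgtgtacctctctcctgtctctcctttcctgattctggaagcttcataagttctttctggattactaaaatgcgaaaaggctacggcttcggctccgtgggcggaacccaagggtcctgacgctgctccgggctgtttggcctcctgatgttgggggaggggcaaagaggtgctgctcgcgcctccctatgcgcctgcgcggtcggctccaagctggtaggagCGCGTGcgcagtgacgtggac
Mnt (chr11:74830674-74830923, plus strand): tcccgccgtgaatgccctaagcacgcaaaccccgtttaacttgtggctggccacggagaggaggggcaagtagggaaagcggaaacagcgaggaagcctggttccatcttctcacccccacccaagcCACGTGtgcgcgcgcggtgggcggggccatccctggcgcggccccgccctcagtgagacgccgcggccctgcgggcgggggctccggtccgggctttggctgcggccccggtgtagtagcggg
Mlx (chr11:101087040-101087289, plus strand): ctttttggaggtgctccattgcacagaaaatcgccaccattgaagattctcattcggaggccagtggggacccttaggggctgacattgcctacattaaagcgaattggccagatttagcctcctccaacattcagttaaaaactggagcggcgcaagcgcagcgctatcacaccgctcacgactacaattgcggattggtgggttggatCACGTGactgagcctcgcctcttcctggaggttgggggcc
The motif of Mxd4 begins 219 bases before the start, that of Mnt 123, that of Mlx 40, and the variant of Mga 21. An E2F-type motif, GGCGCGAAA or TTTCGCGCC on the other strand, was also searched, but it was chosen after the Mycn promoter was seen. It was found in Mycn alone among the 9, against 0.118% of genes, and nothing is read from it. The shares over all genes were not matched for the base composition of the members' promoters. A match is a description of these letters and not a measured binding site.

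Within the network, Myc rose while 5 of its partners and relatives fell. Mycn, Max, Mxd1, Mxd4 and Mga were lower, and Mxd3, Mxi1, Mnt and Mlx did not pass the threshold. That is 1 of 10 higher, against 15.1% of genes above the median level, and 5 of 10 lower, against 30.6%. After quantile normalization again 3 were higher and 3 lower, and after cyclic loess 3 were higher and 5 lower. Shares over the genes above the median level were not counted under these scalings, so these counts are not read as a trait of the members. Only Mga also reached a difference of 1, as 7.62% of those genes did in that direction (1.37% in the other). The groups did not overlap for 2 members that were higher (22.2% of those genes) and 5 that were lower (41.3%), 7 in all (63.4%). The median over the members was -0.31, against -0.14 for the genes above the median level, and -0.11 against 0 after quantile normalization again.

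**Figure D2:**
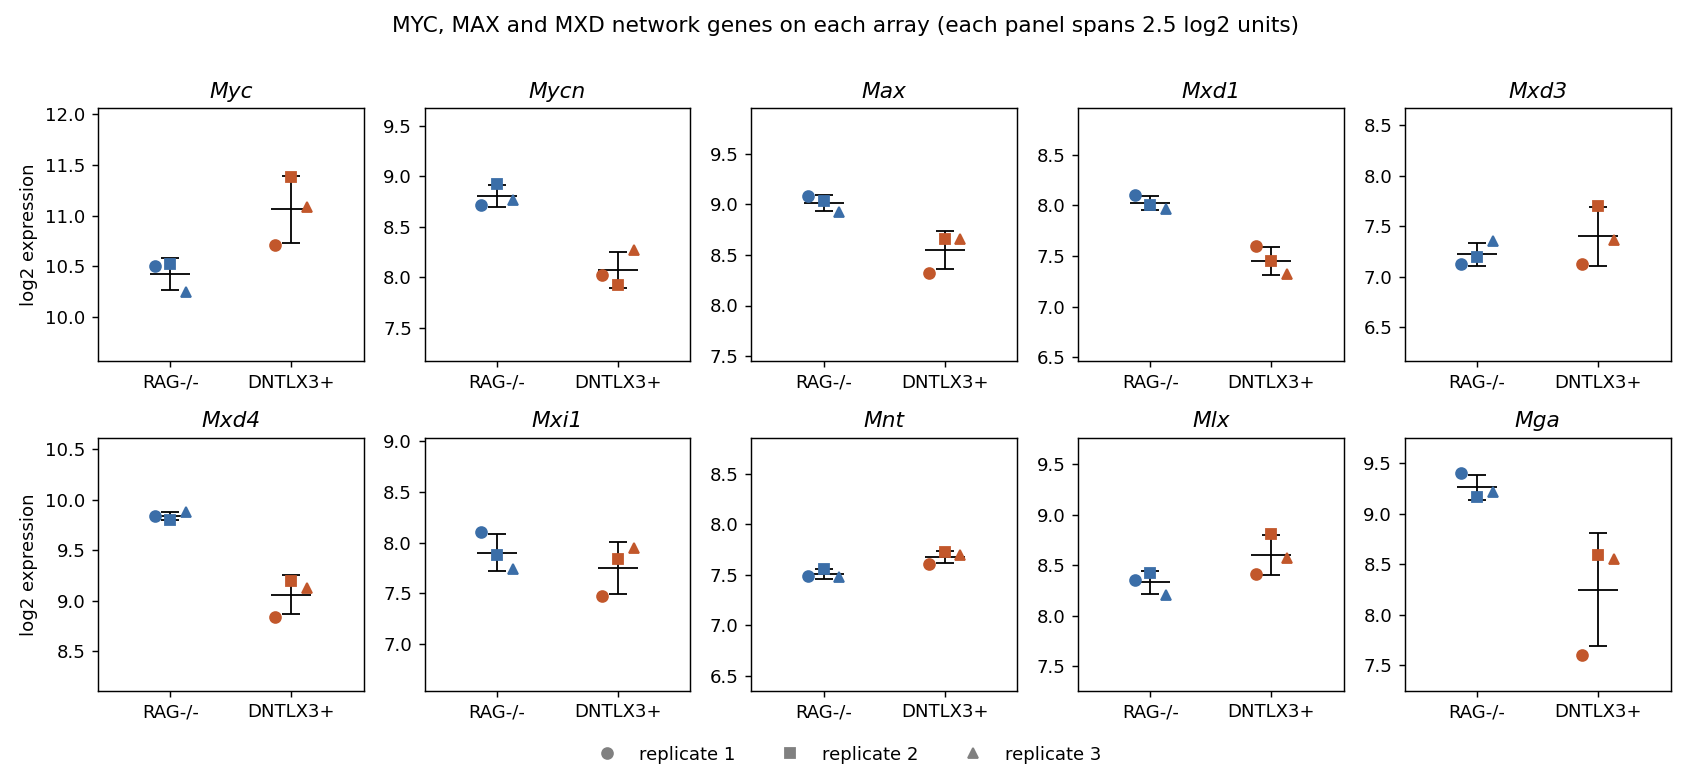
Log2 expression (y axis) of the 10 network genes on each array, with replicates 1, 2 and 3 as circle, square and triangle, and the group mean with its SD (n = 3) as bars. Myc was higher on every DNTLX3+ array than on any RAG-/- array, Mycn, Max, Mxd1, Mxd4 and Mga were lower on every one, and DNTLX3+ replicate 1 had the lowest Mga value, 7.60.

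Myc, the growth-promoting transcription factor at the centre of the network, stood at 10.50, 10.52 and 10.24 on RAG-/- replicates 1, 2 and 3. On DNTLX3+ replicates 1, 2 and 3 it stood at 10.71, 11.38 and 11.08. The groups did not overlap, although DNTLX3+ replicate 1 lay only 0.19 above the highest RAG-/- array. The means were 10.42 ± 0.16 and 11.06 ± 0.33 (SD, n = 3), a 1.56-fold rise with a log2 difference of 0.64 (SE 0.18; limma adjusted p = 0.0197). Without RAG-/- replicate 3, the lowest of the control arrays for Myc, the difference was 0.55 and missed the threshold (adjusted p = 0.0804). After quantile normalization again it was 0.71 (adjusted p = 0.00775).

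Mycn, the paralog known from neural and early lymphoid precursors, moved the opposite way. It was at 8.71, 8.92 and 8.76 on the RAG-/- arrays and at 8.02, 7.92 and 8.27 on the DNTLX3+ arrays. All 3 DNTLX3+ arrays lay below all 3 controls, by at least 0.44. The fall was 1.65-fold, with a log2 difference of -0.73 (SE 0.14; limma adjusted p = 0.00374), and it passed in each of the 15 alternatives, at -0.83 to -0.52. Mycl, the third MYC paralog and not one of the 10, rose from 5.91 to 6.56 (difference 0.65 ± 0.15, adjusted p = 0.00901), from a mean under the array medians.

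Max, the obligate partner of MYC and of most of its antagonists, was at 9.08, 9.03 and 8.92 on the RAG-/- arrays and at 8.32, 8.66 and 8.66 on the DNTLX3+ arrays. The groups were separate, with DNTLX3+ replicate 1 the lowest. The log2 difference was -0.46 (SE 0.14; limma adjusted p = 0.0248), a 1.38-fold fall. This call did not hold after quantile normalization again (-0.27, adjusted p = 0.0745), and it was at the threshold after cyclic loess (-0.30, adjusted p = 0.0494). It also missed the threshold without RAG-/- replicate 1, 2 or 3 (adjusted p = 0.0984, 0.0827 and 0.0535).

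The 4 MXD genes, which encode MAX partners that repress E-box genes, gave 2 falls and 2 values short of the threshold. Mxd4, with the largest fall of them, was at 9.84, 9.80 and 9.88 on the RAG-/- arrays and at 8.84, 9.19 and 9.13 on the DNTLX3+ arrays. The controls lay within 0.08 of each other and at least 0.61 above every DNTLX3+ array. The difference was -0.78 ± 0.13 (SE), a 1.72-fold fall with a limma adjusted p of 0.00233, and it passed in all 15 alternatives, at -0.85 to -0.64. Its promoter is the one above with the E-box farthest from the start.

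Mxd1, the founding MXD gene, which is known to be induced as myeloid and other cells differentiate, was at 8.10, 8.0 and 7.96 on the RAG-/- arrays and at 7.60, 7.45 and 7.32 on the DNTLX3+ arrays. The groups were separate, and Mxd1 was the only member to be highest on replicate 1 among the DNTLX3+ arrays. The difference was -0.56 ± 0.13 (SE), with a limma adjusted p of 0.00804, and it missed the threshold after quantile normalization again (-0.34, adjusted p = 0.078). The myeloid and dendritic list was lower in the same arrays (18 of 20 markers, 90%, against 30.6% of genes above the median level). Its part in the Mxd1 value was not tested.

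Mxd3, the member known for being expressed in proliferating rather than resting cells, was at 7.13, 7.19 and 7.35 on the RAG-/- arrays and at 7.13, 7.70 and 7.36 on the DNTLX3+ arrays. These ranges overlapped, and the difference of 0.18 had a 95% interval of -0.19 to 0.55 (limma adjusted p = 0.393). Mxi1, also called Mxd2, was at 8.10, 7.88 and 7.74 against 7.47, 7.84 and 7.95, again overlapping. Its difference of -0.15 had a 95% interval of -0.52 to 0.22 (limma adjusted p = 0.472) and turned to 0.05 after quantile normalization again and to 0.02 after cyclic loess. For both genes the interval contains 0 and reaches changes of about the size seen for Max and Mxd1, so these arrays do not show that they were equal.

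Mnt, a broadly expressed MAX partner that opposes MYC, was at 7.49, 7.56 and 7.48 on the RAG-/- arrays and at 7.61, 7.73 and 7.70 on the DNTLX3+ arrays. The groups were separate by only 0.05, and the difference of 0.17 ± 0.12 (SE) missed the threshold (95% interval -0.09 to 0.43, limma adjusted p = 0.25). It was past the threshold as higher under both rescalings, with 0.37 from quantile normalization (adjusted p = 0.022) and 0.32 from cyclic loess (adjusted p = 0.0339). Mlx was at 8.35, 8.42 and 8.21 against 8.41, 8.81 and 8.57, where the lowest DNTLX3+ array lay just under the highest control. Its difference of 0.27 ± 0.14 (SE) missed the threshold too (95% interval -0.05 to 0.59, limma adjusted p = 0.15). Mlx passed as higher after quantile normalization again (0.47, adjusted p = 0.0125), after cyclic loess (0.45, adjusted p = 0.0133) and without DNTLX3+ replicate 1 (0.37, adjusted p = 0.0482).

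Mga, a very large protein that joins a MAX-binding zipper to a T-box domain and scaffolds the Polycomb complex PRC1.6, showed the largest difference of the 10 with all arrays. It was at 9.40, 9.17 and 9.21 on the RAG-/- arrays and at 7.60, 8.59 and 8.55 on the DNTLX3+ arrays. All DNTLX3+ arrays were lower by at least 0.58, and replicate 1 lay 0.99 under the highest of its group. Without DNTLX3+ replicate 1 Mga no longer ranked first, at -0.69 against 0.81 for Myc and -0.70 for Mycn. The means were 9.26 ± 0.12 and 8.25 ± 0.56 (SD, n = 3), a 2.02-fold fall with a log2 difference of -1.01 (SE 0.25; limma adjusted p = 0.0107). Mga passed the adjusted p in all 15 alternatives, but the difference fell short of 1 without DNTLX3+ replicate 1, without RAG-/- replicate 1 (-0.94), after quantile normalization again or cyclic loess (-0.85 each) and with array weights (-0.82). After quantile normalization again replicate 1 was still the lowest, with DNTLX3+ values of 7.81, 8.60 and 8.61.

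Replicate 1 of the DNTLX3+ group held the lowest value of its group for 8 of the 10 members, all but Mycn and Mxd1. It is also the array with the narrowest signal range, and the part of that in these values was not tested. The share of all genes lowest on this array was not counted, so the order is not read as a trait of the members. After quantile normalization again Mnt was no longer lowest on it (7.82, against 7.76 and 7.77), and Mlx was level with replicate 3 (8.64). Myc, Max, Mxd3, Mxd4, Mxi1 and Mga were still lowest on it.

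**Figure D3:**
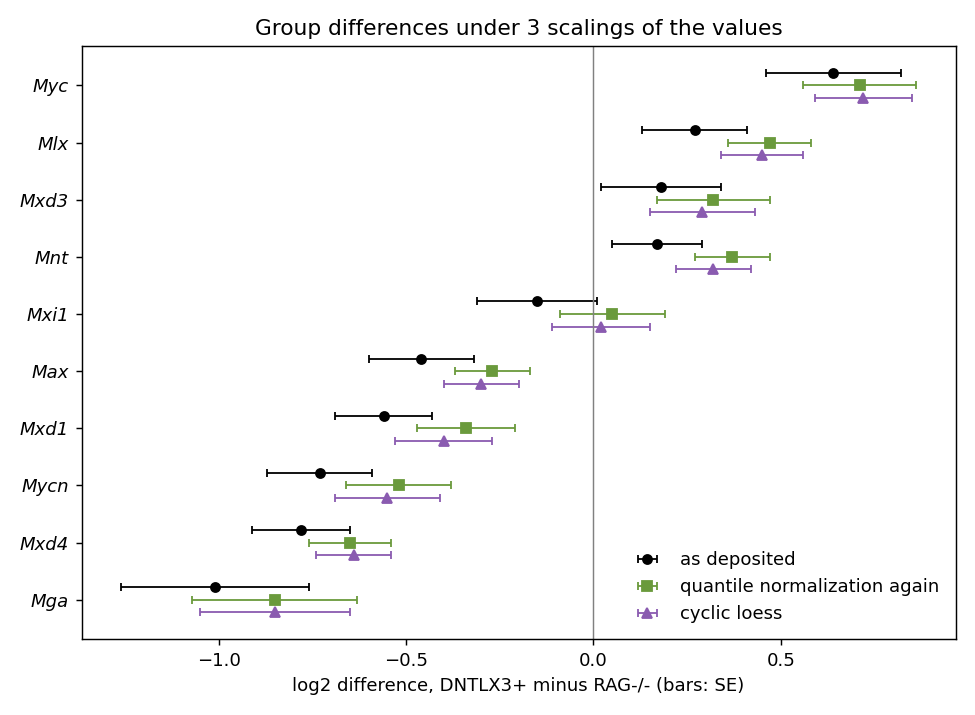
Log2 difference, DNTLX3+ minus RAG-/- (x axis), of the 10 genes (y axis, in order of the difference), with SE bars, for the deposited values and for the rescalings by quantile normalization and by cyclic loess. Myc stays to the right of 0 and Mga, Mxd4, Mycn, Mxd1 and Max to the left under all 3, whereas Mxi1 changes side, from -0.15 to 0.05 and 0.02.

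The MLX side of the network extends to MLXIP (MondoA) and MLXIPL (ChREBP), sensors of glucose metabolites, and to Txnip and Arrdc4, arrestin-like genes known as their direct targets. Txnip was at 10.93, 10.73 and 10.84 on the RAG-/- arrays and at 9.96, 10.19 and 10.08 on the DNTLX3+ arrays. Arrdc4 was at 7.12, 7.04 and 7.12 against 6.44, 6.28 and 6.33. Both sets were well separated, and both genes fell, by 0.76 and 0.75 (limma adjusted p = 0.00209 and 0.00166). Mlxip itself stood at 8.38 and 7.98 and was not past the threshold, and Mlxipl rose from 6.25 to 6.59 (adjusted p = 0.0408), near the array medians. With Mycl, 2 of 5 genes rose and 2 fell (40% each). Of genes above the median level 15.1% rose and 30.6% fell. The call of Mlxipl or of Mycl was lost, leaving 1 of these 5 genes higher instead of 2, in 9 of the 15 alternatives. Those include cyclic loess and leaving out any RAG-/- array.

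Among the corepressors that MXD and MNT proteins recruit, subunits of the SIN3-HDAC complex were mostly lower or not past the threshold. Of 17 measured, 7 fell (41.2%, against 30.6% of genes above the median level) and 2 rose (11.8%, against 15.1%). The other 8 did not pass, and the list median was -0.23 (-0.04 after quantile normalization again). Arid4b, a chromodomain subunit of the complex, was at 8.82, 8.70 and 8.63 on the RAG-/- arrays and at 6.79, 7.33 and 7.44 on the DNTLX3+ arrays. Its paralog Arid4a was at 8.88, 8.84 and 8.66 against 7.55, 7.80 and 7.77. Neither gene's groups came near each other, and the differences were -1.53 ± 0.18 and -1.09 ± 0.13 (SE; limma adjusted p = 0.000457 and 0.00053). Sap18 (-1.19) and Brms1l (-1.12) also fell, whereas the scaffold Sin3a differed by -0.10 and was not past the threshold. The histone-binding proteins Rbbp7 (0.53) and Rbbp4 (0.51) rose. Without RAG-/- replicates 1, 2 and 3 the number higher was 1, 1 and 0.

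MGA works within PRC1.6, a variant Polycomb complex that silences E-box and E2F-type genes. Of 14 measured members of that complex, 3 rose (21.4%, against 15.1% of genes above the median level), 2 fell (14.3%, against 30.6%) and 9 did not pass, with a median of -0.01 (0.14 after quantile normalization again). Tfdp2, a dimer partner of E2F factors, fell from 8.78 to 7.58 (difference -1.20 ± 0.14 SE, limma adjusted p = 0.000529). Cbx3, a heterochromatin protein, fell by 0.68 on its brightest probe set, while the other 5 gave -0.19 to 0.24. Rybp (1.14, with 0.12 on a further probe set), Tfdp1 (0.65) and L3mbtl2 (0.59) rose. Pcgf6, the subunit that defines the complex, was at 8.15 in the RAG-/- and 8.12 in the DNTLX3+ group, and E2f6 at 8.26 and 8.28. The means of Pcgf6 and E2f6 thus differed by -0.03 and 0.02 and were not past the threshold. What these transcript levels mean for the complex around Mga was not tested. The number higher was 2 with equal array medians, without any 1 RAG-/- array, and without DNTLX3+ replicate 2 or 3. It was 4 under either rescaling. With the mean of each gene's probe sets 1 gene of the list fell instead of 2.

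Of 18 MYC coactivators measured, 3 rose (16.7%, near the 15.1% of genes above the median level), 2 fell (11.1%, against 30.6%) and 13 did not pass (median -0.11, and 0.03 after quantile normalization again). Hcfc1 (0.64), the AAA ATPase Ruvbl2 (0.49) and the acetyltransferase Kat2a (0.43) rose, and the acetyltransferases Kat2b (-0.66) and Crebbp (-0.54) fell. Trrap, the scaffold through which MYC recruits acetyltransferases, differed by -0.31 and was not past the threshold. The number higher was 6 under either rescaling, and 1 without RAG-/- replicate 2 or 3. The number lower was 1 without RAG-/- replicate 1.

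Of 18 measured genes that act on Myc transcription, 6 fell (33.3%) and 3 rose (16.7%), both near the 30.6% and 15.1% of genes above the median level, and 9 did not pass, with a median of -0.25 (-0.07 after quantile normalization again). Notch1, whose protein activates Myc in T-lineage cells, was at 12.46, 12.30 and 12.44 on the RAG-/- arrays and at 11.37, 12.00 and 11.95 on the DNTLX3+ arrays. The DNTLX3+ arrays were all lower, replicate 1 the most. The difference was -0.62 ± 0.18 (SE; limma adjusted p = 0.0204), opposite in sign to that of Myc. Notch signalling itself was not measured, and a link between the 2 transcripts was not tested. Fubp1, named for binding a far upstream element of Myc (-0.85), Notch3 (-0.77) and Cnbp (-0.60) also fell. E2f2 rose from 7.95 to 8.98 (1.04 ± 0.14 SE, adjusted p = 0.000792), with E2f1 (0.57) and Ikzf1 (0.40). The number lower was 2, 3 and 3 without RAG-/- replicates 1, 2 and 3, and the number higher 1 without RAG-/- replicate 1 or DNTLX3+ replicate 2 or 3.

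Genes for turnover of the MYC protein were lower in 9 of 18 cases (50%, against 30.6% of genes above the median level). They were higher in 3 (16.7%, near the 15.1% of those genes) and not past the threshold in 6. The list median was -0.30 (-0.15 after quantile normalization again). Fbxw7, the ubiquitin ligase subunit that marks MYC for destruction, was at 7.86, 7.78 and 7.76 on the RAG-/- arrays and at 6.08, 7.0 and 6.60 on the DNTLX3+ arrays. The difference was -1.25 ± 0.21 (SE; limma adjusted p = 0.00218), while a dimmer probe set, below the array medians, gave 0.32. Huwe1 (-0.84) and Btrc (-0.64), further ubiquitin ligase genes, fell. Set, a phosphatase inhibitor, fell too (-0.64), from 6.67 to 6.03, near the array medians. The kinases Plk1 (0.90), Aurka (0.74) and Gsk3a (0.72) rose, the first 2 of which are also genes of mitosis. The number lower was 4 after quantile normalization again, and 3, 4 and 5 without RAG-/- replicates 1, 2 and 3. The list was not split by whether a gene raises or lowers the MYC protein, so its counts have no direction for MYC. Transcript levels do not measure the stability of the protein.

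Genes known to be activated by MYC were largely higher. Of 40 measured, 23 rose (57.5%, against 15.1% of genes above the median level) and 0 fell by the limma adjusted p (against 30.6%). At an unadjusted limma p under 0.05, 1 was lower. The other 17 did not pass the adjusted p, and the median was 0.42 against -0.14. It was 0.56 under either rescaling. This list, like the others here, was chosen with earlier results of these data known. The shares set beside it are therefore a description and not a test. Rrs1, a ribosome assembly factor, was at 7.67, 7.74 and 7.80 on the RAG-/- arrays and at 9.34, 9.68 and 9.30 on the DNTLX3+ arrays. Shmt2, a mitochondrial enzyme of one-carbon metabolism, was at 8.68, 8.84 and 8.58 against 10.19, 10.21 and 10.09. In both genes the DNTLX3+ arrays were more than 1 log2 unit above every control, and the differences were 1.70 ± 0.14 and 1.46 ± 0.13 (SE; limma adjusted p = 9.87e-05 and 0.000117). Mrto4, a factor of ribosome assembly, rose by 1.43, with 0.82 on a further probe set, and Fbl by 1.36, with 0.54 on a further one. Odc1, the classical MYC target that starts polyamine synthesis, was at 9.04, 8.89 and 8.78 against 9.60, 10.09 and 9.90, a rise of 0.96 that a further probe set gave as 0.98. Ncl, the nucleolar protein nucleolin, differed by 0.20 and was not past the threshold, as were Npm1 (-0.13), Cdk4 (-0.16) and Ccnd2 (-0.39). Ccnd2 passed as lower in the only 3 settings that gave the list a lower call, which were probe sets above the median, an intensity trend with robust estimation, and without DNTLX3+ replicate 2.

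Of the 33 measured MYC-activated genes with a promoter sequence, 8 (24.2%) held the canonical E-box in the 250 bases before their start, against 6.86% of all genes, and 9 (27.3%) held the variant, against 8.65%. Among the 8 with the canonical E-box, 2 rose and the median difference was 0.23. Among the other 25, 16 rose and the median was 0.57. Those 25 include Odc1, Nolc1, Tfrc, Hspe1, Shmt1 and Ubtf, which held the variant and rose. The split is therefore not by having any E-box. The shares over all genes were not matched for base composition. These are descriptions of a short window in which no match says nothing about the factor.

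Of 15 measured genes known to be repressed by MYC, 5 fell (33.3%) and 1 rose (6.67%). Of genes above the median level 30.6% fell and 15.1% rose. The other 9 of the list did not pass, and its median was -0.34 (-0.16 after quantile normalization again). Btg1, an antiproliferative gene of resting lymphocytes, was at 11.38, 11.35 and 11.26 on the RAG-/- arrays and at 9.91, 10.03 and 10.15 on the DNTLX3+ arrays, a clear separation and a fall of 1.30 (SE 0.12, limma adjusted p = 0.000196). Cdkn1b, an inhibitor of cyclin-dependent kinases, fell by 0.93, with -0.27 on a further probe set. Fth1, the ferritin heavy chain (-0.80), and the integrin Itgb1 (-0.61) fell too. Cdkn2b, a CDK inhibitor gene that MYC represses through MIZ1, rose by 0.50 from 6.37, near the array medians. That rise was lost without any RAG-/- array or DNTLX3+ replicate 2, and 3 genes were lower without RAG-/- replicate 1.

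Genes of G2 and mitosis were higher in the same arrays, as 13 of 18 rose (72.2%, against 15.1% of genes above the median level), Cenpe fell (5.56%, against 30.6%) and 4 did not pass, with a median of 0.61. Their mean level was 8.40 to 8.52 on the RAG-/- arrays and 8.89 to 9.18 on the DNTLX3+ arrays. The fall of Cenpe was lost after quantile normalization again and without any RAG-/- array. The 4 that did not pass were Mki67 (9.85 in both groups), Kif11 (0.04), Cenpa (0.13) and Prc1 (-0.17). Top2a rose by 0.39, while a dimmer probe set, below the array medians, gave -0.52. The part of dividing cells in the values of Myc and its targets was not tested.

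**Figure D4:**
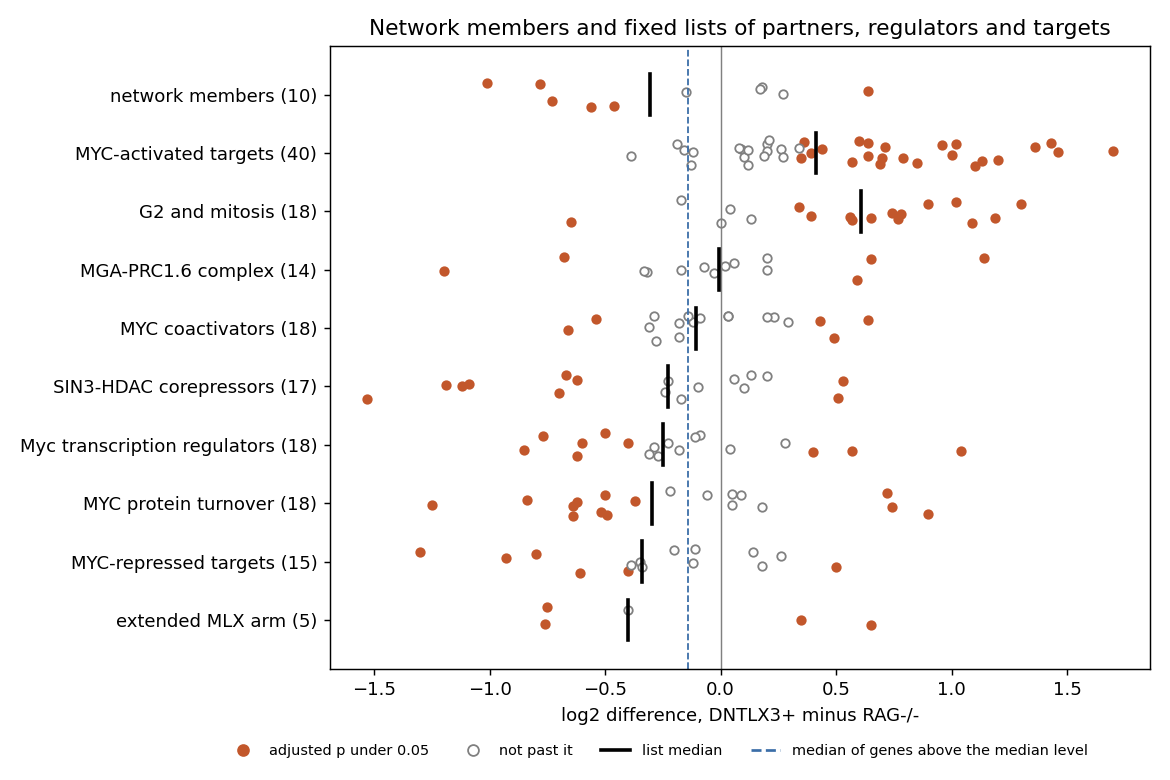
Log2 difference, DNTLX3+ minus RAG-/- (x axis), of the network members and of 9 lists of partners, regulators and targets (y axis, number measured in brackets), 1 point per gene, filled where the limma adjusted p was under 0.05, with vertical position inside a list random. Black bars are list medians and the dashed line is the median of genes above the median level, -0.14, and MYC-activated targets (0.42) and G2 and mitosis genes (0.61) lie to its right.

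The genes most like Myc across the 6 arrays, among 10755 others above the median level, were Zmynd19, Gas2, Psenen, Cox6b2 and Bud23, with Pearson correlations of 0.9994, 0.9983, 0.9978, 0.9975 and 0.9972. The 6 points share their group labels and array scaling, and 859 genes had a correlation over 0.9, so these names only describe these arrays.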

How the data were processed

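Total RNA was labelled with biotin and hybridised to 1-colour arrays, 3 per group, with groups and replicate numbers taken from the sample titles. The submitters' processing notes name R 2.9.0, affy and RMA for the deposited log2 values. RMA corrects background, applies quantile normalization and summarises probes. The deposited values of the tested probe sets were nevertheless not equal in distribution across the 6 arrays. Their interquartile ranges were 3.09 to 3.18 on the RAG-/- and 2.47 to 2.85 on the DNTLX3+ arrays. Genome build and annotation: not given in the sources used here.

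Of 34760 probe sets, 6568 low-numbered ones with no gene listed were left out and 28192 were tested with limma 3.58.1 in R 4.3.3 (lmFit and eBayes, two-sided, no covariate). Benjamini-Hochberg adjustment ran over all 28192, at a threshold of 0.05. A difference of at least 1 was a stricter rule. Among probe sets with 1 symbol, the one of highest mean stood for its gene (19937 genes), and intervals are 95% from the moderated spread. The script was tested on simulated data, where 67, 67 and 66 of 28192 probe sets were changed by 0.5, 1 and 2. Of these 0%, 55.2% and 87.9% were recovered. Far more probe sets passed in the real data, so these shares do not carry over directly. Precision is limited by how few arrays there are.

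The members and lists were chosen with earlier results of these data known. Named genes are the members, up to 4 called genes per list and direction with the largest difference, a fixed set (Fbxw7, Notch1, Trrap, Sin3a, Pcgf6, Txnip, Odc1, Ncl) and the 5 genes most like Myc. One further gene is not reported here. Others were named after their values were seen. Tcf7, Lck and Cdkn1a, among others, had no single-symbol probe set. Alternatives were renormalization, filters on dim probe sets, variance models, weighted arrays, a replicate block, averaged probe sets per gene and leaving out each array. Plots were drawn with matplotlib 3.10.9.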

Additional observations from a re-analysis of the deposited data

How the results depend on the processing

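Of 15 alternatives, 4 to 8 members passed the adjusted p in each, against 6 with the values as deposited. The share of all genes that passed in each alternative was not counted. After quantile normalization again 3 were higher and 3 lower, the latter without Max and Mxd1. After cyclic loess 3 were higher and 5 lower. Leaving out 1 array gave 0 to 2 members higher, where 0 is without RAG-/- replicate 3 (Myc, limma adjusted p = 0.0804). With the minimum difference of 1, which Mga alone met, 0 members passed with array weights, 0 after cyclic loess and 0 after quantile normalization again, and 0 to 1 when 1 array was left out. Replicate numbers gave no sign of pairing. Same-numbered arrays had correlations of deviations of -0.139, 0.132 and 0.039, and differently numbered ones -0.23 to 0.149. With 3 arrays per group these values cannot exclude a pairing. With the replicate block 6 members passed, 1 higher and 5 lower, and 77 list genes instead of 87. The list genes past the threshold were 94 after cyclic loess, and 58, 64 and 59 without RAG-/- replicates 1, 2 and 3. Among list genes past the adjusted p, Top2a turned its sign, from 0.39 to -0.07 with the mean of its probe sets. No background level was measured. All members lie above the array medians, while Mycl in the RAG-/- group lies under them.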

Other observations

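Other basic helix-loop-helix factors that bind E-boxes lie outside the MAX network. Of 16 measured, 2 fell (the share is 30.6% over genes above the median level), 0 rose (0 at an unadjusted p under 0.05 too) and 14 did not pass the limma adjusted p (median -0.20, against -0.14 for genes above the median level). Clock, a core factor of the circadian clock, was 7.29 in the RAG-/- and 6.24 in the DNTLX3+ group, a fall of 1.05. Bhlhe41, a repressor of clock genes, fell by 0.76 between means under the array medians. Usf1 (-0.40), Usf2 (0.23) and Tfe3 (0.26), which bind the same CACGTG element as MYC, were not past the threshold. Bhlhe41 was not tested among probe sets above the median, which left 1 lower. After quantile normalization again 2 of the 16 were higher and 2 lower, and after cyclic loess 3 were higher and 3 lower.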
